A study of Homo sapiens with 6 samples.

Results

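The enzymes that build cholesterol and fatty acids, together with the SREBP regulators that control their genes, were described as a list of 40 genes, out of 19775 genes that at least 1 probe set names alone. The members were taken by gene symbol: every probe set that the array annotation gives to a single one of these symbols was used, 80 in all. Of the 40 genes, 33 were bright enough to test, MVD and TM7SF2 lay under the filter, and 5 had no single-gene probe set analysed here. Those 5 were CYP51A1, FADS1 and ELOVL1, whose probe sets the annotation shares with another symbol, and FDFT1 and ACSL3. By role, 15 of 19 genes of the sterol arm, 9 of 11 of the fatty acid arm, 4 of 5 desaturases and all 5 regulators were tested.

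RNA came from xenografts of U87-EV, a derivative of the human glioblastoma line U87 whose suffix the labels do not explain, grown under the skin of female BALB/c SCID mice that were 6 to 8 weeks old at implantation with Matrigel. Bevacizumab tumours (3 arrays) came from mice injected intraperitoneally each 3 days with 10 mg/kg of bevacizumab, an antibody that neutralises human VEGFA, and control tumours (3 arrays) came from mice given saline. Dosing began at 150 to 200 mm3 and ended when tumours were about 15 to 30 mm across, in cohorts of 5 mice at the start. Tumours were therefore taken by size and not at a set time, and the host lacks T and B cells. No label ties an array to a mouse of its own, and p-values here reflect only how far arrays of a group differ, which may be technical. All tumours stem from 1 cell line.

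Cholesterol is built from acetyl-CoA through mevalonate, squalene and lanosterol, and fatty acids from acetyl-CoA through malonyl-CoA, elongation and desaturation. Both routes are switched on by SREBP transcription factors, which are made as membrane proteins of the endoplasmic reticulum. When membrane cholesterol is low, the escort protein SCAP carries SREBP to the Golgi, where proteases release its active part; when sterols are plentiful, the INSIG proteins hold SCAP back. SREBP-1 is best known for the fatty acid genes and SREBP-2 for the sterol genes, and several steps of both routes, among them the desaturases, consume molecular oxygen.

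Values are the deposited GCRMA values on the log2 scale, and changes are bevacizumab minus control. A gene is called when its adjusted p from limma, over all 10233 genes tested, is under 0.05. After bevacizumab 10 of the 33 tested members were called higher, against 9.09% of all tested genes, and 1 was called lower, against 9.97% of all tested genes. The 10 were SREBF1, INSIG1, INSIG2, HMGCS1, LSS, MSMO1, DHCR7, STARD4, ACACA and SCD, and the 1 lower was SC5D. The groups did not overlap in 11 members with bevacizumab above, against 19% of all tested genes, and in 2 with bevacizumab below, against 22% of all tested genes. The median change was 0.15 over the members and -0.01 over all tested genes, and single members ran from -0.56 to 2.41.

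Several features of the arrays moved with the groups. The 3' to 5' difference of the ACTB control probe sets, which grows as RNA degrades, was 1.81 ± 0.16 in bevacizumab tumours and 1.38 ± 0.26 in control tumours (SD, n = 3 each; exact permutation p = 0.2, two-sided, where 0.1 is the smallest possible), and the groups overlapped. The same difference for GAPDH was -0.02 ± 0.03 in bevacizumab tumours and -0.12 ± 0.02 in control tumours (SD, n = 3 each), without overlap (exact permutation p = 0.1, two-sided, the smallest possible). In a fit that held the ACTB difference as covariate, no member was called by limma and 24 genes of all were. At an unadjusted limma p under 0.05 the covariate fit had 5 of 33 members higher and 3 lower. In either direction 2643 of all 10233 tested genes passed that level in the same fit. Of 10 glioma cell markers, VIM and CD44 read at least 13.93 on every array, and GFAP, OLIG2 and S100B were under 4 on every array, so these glial markers were absent at the level of this filter. Of the others NES fell by 1.18 (limma adjusted p = 0.00725) and EGFR rose by 1.22 (limma adjusted p = 0.00767), while FABP7 had a change of 1.02 without a call. Markers of mural cells, which wrap vessels, summed to a log2 level of 11.79 to 11.97 in bevacizumab tumours and 13.06 to 13.40 in control tumours, with MYH11 and DES under 4 on every array. Of these markers ACTA2 fell by 1.79 and RGS5 fell by 2.85 (limma adjusted p = 0.00407 and 0.00219), whereas PDGFRB, CSPG4 and NOTCH3 had changes of 0.30, 0.16 and -0.51, overlapped and were not called. Macrophage markers summed to 8.36 to 9.01 in bevacizumab tumours and 9.46 to 9.67 in control tumours, with 5 of 7, PTPRC and CD14 among them, under 4 on every array. That sum is nearly all ADGRE1, which fell by 0.92 (limma adjusted p = 0.0352); AIF1, the other marker above 4, had a change of -0.14 with overlap and no call. Adipocyte markers summed to 6.38 to 6.55 in bevacizumab tumours and 6.24 to 6.38 in control tumours, and 9 of the 10, ADIPOQ, FABP4, LPL and PLIN1 among them, were under 4 on every array. PNPLA2, the only other, changed by 0.31 with overlap and no call. Of 8 endothelial markers 6 were under 4 on every array, and PECAM1 and TEK changed by 0.18 and -0.03. Of 8 measured markers of keratinocytes and sebocytes 7 were under 4 on every array, and KRT10 changed by -0.02. PECAM1, TEK and KRT10 overlapped and were not called. TEK carried the same deposited value, 5.895, on bevacizumab 2, control 1 and control 3. AIF1 likewise carried 4.853 on bevacizumab 1, bevacizumab 3 and control 1. Whether TEK and AIF1 RNA was detected above background was not tested. The array is human and mouse RNA was not separated. Whether the mural, macrophage and endothelial marker readings come from mouse host cells or from the human tumour cells cannot be told apart. In bulk tumour RNA, fewer cells of a type and less RNA per cell cannot be told apart either. Whether mural cells or macrophages have any part in the results was not tested.

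**Figure D1:**
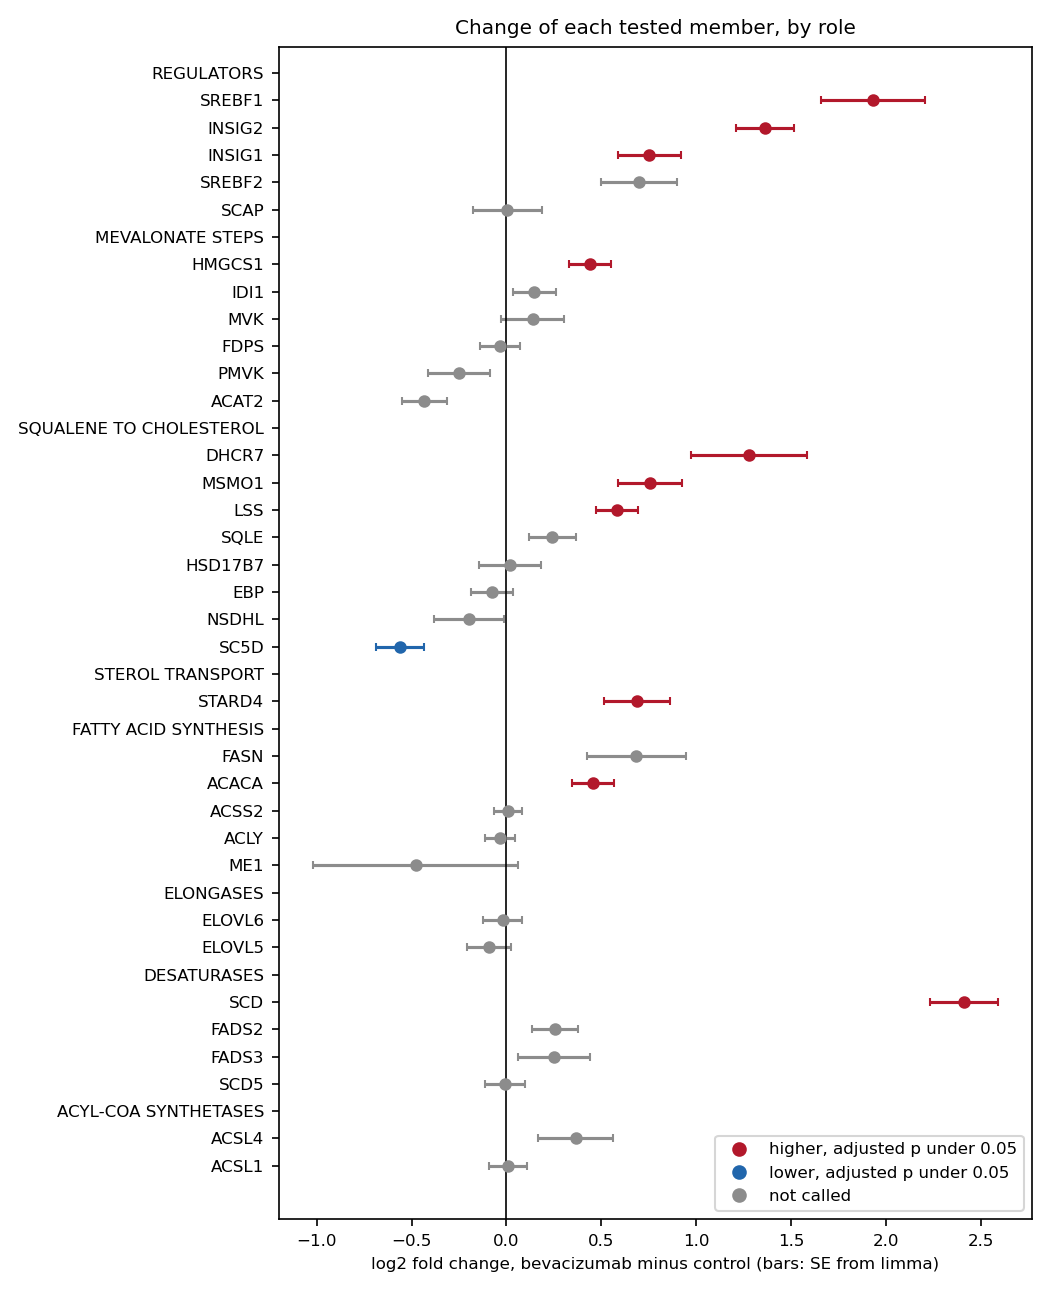
Log2 fold change of each of the 33 tested members, bevacizumab minus control, ordered by role, with bars for the limma SE. SCD at 2.41, SREBF1 at 1.93, INSIG2 at 1.36 and DHCR7 at 1.28 stand farthest to the right, and SC5D at -0.56 is the only member called lower.

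Of the 40 members, 36 had a promoter in the RefSeq table. The promoters of the 4 members called with a change of at least 1 are shown because they are the genes whose RNA moved most, and those of MSMO1 and SREBF2 because they hold the sterol element core that was searched for and their groups did not overlap, a choice made after the values were seen. Each is the first window of 300 bases that the table lists for the gene, from 250 before to 50 after a transcript start, in build GRCh38.p14, written along the gene's strand. For 10 of the 36 members the table lists more than 1 window, DHCR7 and INSIG2 among them, and only the first was searched. The DHCR7 window belongs to a start 650 bases inside the outermost start of the gene. Capitals mark every match on either strand to TCACNCCA (the core of a sterol response element), CACGTG (an E-box), ACGTG (the core of a hypoxia response element, which lies inside CACGTG) and CCAAT (a site of NF-Y, a factor known to act beside SREBP).
SCD, chr10:100346983-100347282, plus strand: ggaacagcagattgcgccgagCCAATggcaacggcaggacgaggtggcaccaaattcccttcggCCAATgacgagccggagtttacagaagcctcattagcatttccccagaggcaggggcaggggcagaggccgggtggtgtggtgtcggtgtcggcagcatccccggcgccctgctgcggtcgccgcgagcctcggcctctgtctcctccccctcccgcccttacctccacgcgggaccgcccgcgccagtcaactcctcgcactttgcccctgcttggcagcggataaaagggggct
SREBF1, chr17:17836937-17837236, minus strand: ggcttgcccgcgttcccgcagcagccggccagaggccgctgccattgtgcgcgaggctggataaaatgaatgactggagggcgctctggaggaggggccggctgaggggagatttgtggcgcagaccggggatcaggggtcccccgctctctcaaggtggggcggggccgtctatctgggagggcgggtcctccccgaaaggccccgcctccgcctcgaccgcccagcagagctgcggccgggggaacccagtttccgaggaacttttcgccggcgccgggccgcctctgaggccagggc
INSIG2, chr2:118088221-118088520, plus strand: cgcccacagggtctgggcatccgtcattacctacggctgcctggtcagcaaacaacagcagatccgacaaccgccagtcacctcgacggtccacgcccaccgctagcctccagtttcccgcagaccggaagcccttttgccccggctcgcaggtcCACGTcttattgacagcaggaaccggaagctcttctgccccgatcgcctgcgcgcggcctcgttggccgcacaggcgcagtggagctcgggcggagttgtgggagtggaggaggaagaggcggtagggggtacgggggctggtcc
DHCR7, chr11:71448344-71448643, minus strand: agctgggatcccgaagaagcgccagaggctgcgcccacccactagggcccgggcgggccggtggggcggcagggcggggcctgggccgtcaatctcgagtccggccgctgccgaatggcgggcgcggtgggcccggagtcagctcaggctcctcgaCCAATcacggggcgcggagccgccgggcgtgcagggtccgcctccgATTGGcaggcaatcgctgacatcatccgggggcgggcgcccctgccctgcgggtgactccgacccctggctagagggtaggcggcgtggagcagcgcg
MSMO1, chr4:165327419-165327718, plus strand: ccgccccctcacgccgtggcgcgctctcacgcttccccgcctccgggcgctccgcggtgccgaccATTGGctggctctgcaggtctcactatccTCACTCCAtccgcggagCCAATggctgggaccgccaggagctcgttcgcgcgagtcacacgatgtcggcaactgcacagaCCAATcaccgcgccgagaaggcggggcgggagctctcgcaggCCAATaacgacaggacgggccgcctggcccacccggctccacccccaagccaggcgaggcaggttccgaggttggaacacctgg
SREBF2, chr22:41832855-41833154, plus strand: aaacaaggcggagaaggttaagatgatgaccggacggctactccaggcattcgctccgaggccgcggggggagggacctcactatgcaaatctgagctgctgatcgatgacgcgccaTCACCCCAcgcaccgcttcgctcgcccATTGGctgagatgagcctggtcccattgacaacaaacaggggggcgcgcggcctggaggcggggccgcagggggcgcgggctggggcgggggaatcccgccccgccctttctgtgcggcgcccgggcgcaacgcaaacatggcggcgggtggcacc

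In these windows SCD held CCAAT at -229 and -186 from the start, counted at the leftmost base and from the start of that window. DHCR7 held it at -94 and, on the other strand, at -48, and MSMO1 held 4 copies between -185 and -34 over both strands. The sterol core stood at -156 in MSMO1, as TCACTCCA, and at -133 in SREBF2, as TCACCCCA. INSIG2 held 1 hypoxia element core, at -95 on the other strand, and the SREBF1 window held none of the 4 motifs. Over the 36 members with a promoter in the table, 4 held the sterol core (11.1%), against 3.29% of the 8507 promoters of tested genes. CCAAT was in 23 of the 36 (63.9%), against 37.1%, the E-box in 5 (13.9%), against 10.5%, and the hypoxia core in 9 (25.0%), against 27.5%. The sterol core was in 1 of 10 members called higher and in 3 of 20 tested members not called higher, and CCAAT in 7 of 10 and 12 of 20. Over all 27305 promoters of the table the shares were 3.93% for the sterol core, 35.7% for CCAAT, 7.43% for the E-box and 21.6% for the hypoxia core. The median share of G and C was 69.0% in member promoters and 65.3% in those of tested genes. A match describes the letters of the window and is not a shown binding site.

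Among the 5 regulators, SREBF1, INSIG1 and INSIG2 were called higher, SREBF2 and SCAP were not called, and the median change was 0.75. Of all tested genes 9.09% were called higher and 9.97% lower. SREBF1, which encodes SREBP-1, read 5.83, 6.86 and 6.62 in bevacizumab tumours, against 4.52, 4.31 and 4.68 in control tumours. The lowest bevacizumab array lay above the highest control array by more than the spread of the controls. The change was 1.93 (SE 0.27, limma adjusted p = 0.00918), or 3.82-fold. The control arrays lay near the filter of 4. The mean of SREBF1 over all arrays was 5.47, so it was not tested with a filter at 6. A second SREBF1 probe set stayed at or under 2.30 on every array and was not tested. SREBF2, which encodes SREBP-2, read 7.75, 8.27 and 8.42 in bevacizumab tumours, against 7.25, 7.64 and 7.45 in control tumours. These groups did not overlap either, and the change of 0.70 (SE 0.20) had a limma adjusted p of 0.0592, just over the threshold. SREBF2 was called with a filter at 6 (limma adjusted p = 0.0407), with probe sets averaged (0.0340) and without bevacizumab 1 (0.0190), and not in the other settings tried. Whether the 2 SREBF genes differed in their change was not tested. All 3 SREBF2 probe sets had bevacizumab arrays above control arrays, with changes of 0.70, 0.55 and 0.21, and none was called.

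INSIG2, 1 of the 2 anchors that hold SCAP in the endoplasmic reticulum, read 10.52, 10.29 and 10.66 in bevacizumab tumours, against 8.88, 9.17 and 9.32 in control tumours. Its change was 1.36 (SE 0.15, limma adjusted p = 0.00554), or 2.57-fold, with a gap between the groups. INSIG1, the other anchor and itself a classic SREBP target, read 13.56, 13.12 and 13.49 in bevacizumab tumours, against 12.45, 12.58 and 12.88 in control tumours. Its change was 0.75 (SE 0.17, limma adjusted p = 0.0297), or 1.69-fold, on the brightest probe set. The other INSIG1 probe sets rose by 1.06 and 1.12, so all 3 were called. SCAP, the escort, read 7.87, 8.47 and 8.27 in bevacizumab tumours, against 8.33, 8.27 and 7.98 in control tumours, and the groups overlapped fully (change 0.01, SE 0.18).

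Each call was also fitted without 1 array at a time. SREBF1, INSIG2 and SCD were called in all 6 of these fits, with adjusted p of at most 0.0479 for SREBF1, 0.0333 for INSIG2 and 0.0189 for SCD. INSIG1 was called in 2 of them, without control 3 or bevacizumab 2. LSS was called in 3, those that left out a bevacizumab array. SC5D was called in 2, without control 1 or bevacizumab 1. HMGCS1 and DHCR7 were called only without bevacizumab 1, ACACA only without bevacizumab 3 and STARD4 and MSMO1 only without control 3. The number of members called higher was 3, 3 and 6 without control 1, 2 and 3, and 8, 5 and 5 without bevacizumab 1, 2 and 3. Calls over all tested genes, in either direction, moved as well. They numbered 578, 558 and 897 without control 1, 2 and 3, and 2074, 1075 and 1476 without bevacizumab 1, 2 and 3. With all 6 arrays 1950 genes were called.

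**Figure D2:**
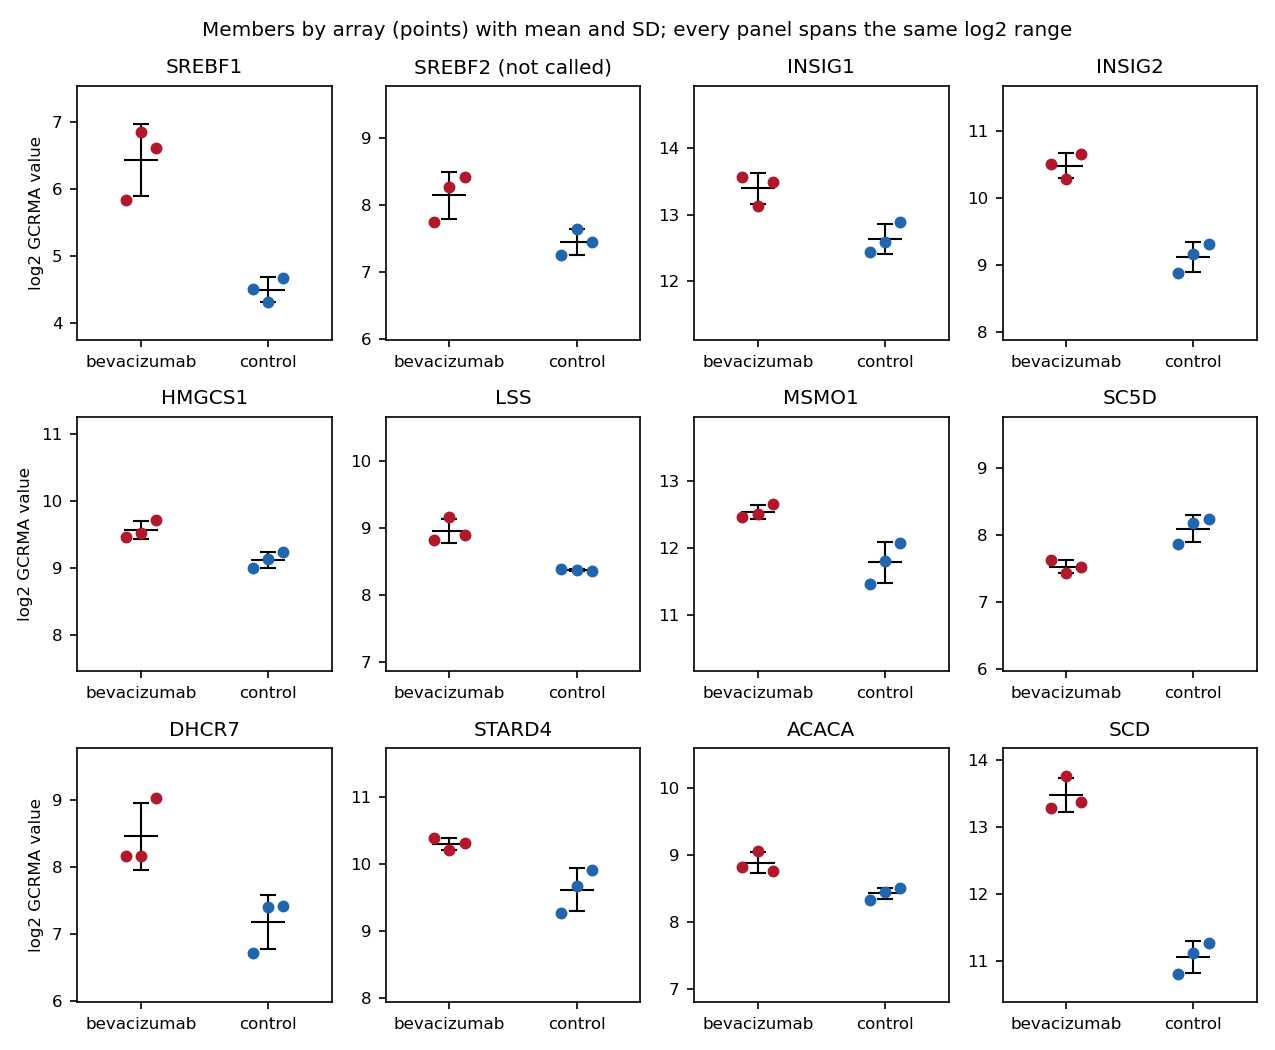
Log2 GCRMA values of the 11 called members and SREBF2 on each array, numbered as in the labels and drawn from left to right, with the group mean and SD (n = 3 each). In every panel the bevacizumab points lie clear of the control points, above them for all but SC5D, whose bevacizumab arrays read 7.44 to 7.63 and control arrays 7.87 to 8.24.

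Of the 15 tested sterol genes 5 were called higher and 1 lower, against 9.09% higher and 9.97% lower of all tested genes, with a median change of 0.14. In the mevalonate steps 1 of 6 was called. HMGCS1, which makes HMG-CoA, read 9.47, 9.53 and 9.72 in bevacizumab tumours, against 9.00, 9.14 and 9.24 in control tumours (change 0.44, SE 0.11, limma adjusted p = 0.0397). Its dimmer probe set ran the same way, by 0.27, without a call and with overlapping groups. Besides leaving out arrays, 5 of 11 other settings kept the HMGCS1 call. It was lost with probe sets averaged, after quantile normalization and with arrays centred (limma adjusted p = 0.115, 0.0514 and 0.0771), among others. ACAT2, which makes acetoacetyl-CoA at the entry to the route, read 8.74, 8.80 and 9.04 in bevacizumab tumours, against 9.17, 9.41 and 9.29 in control tumours. Its groups did not overlap and its change of -0.43 (SE 0.12) had a limma adjusted p of 0.0509, just over the threshold. MVK and PMVK, the kinases that phosphorylate mevalonate, changed by 0.14 and -0.25. IDI1, the isopentenyl isomerase, changed by 0.15, and FDPS, which joins the isoprenoid units, by -0.04. None of these 4 was called and their groups overlapped. MVD, the decarboxylase, read between 3.58 and 3.71 on every array.

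The steps from squalene to cholesterol held genes in both directions. DHCR7, which carries out a last reduction to cholesterol, read 8.17, 8.17 and 9.04 in bevacizumab tumours, against 6.72, 7.41 and 7.41 in control tumours. Bevacizumab 3 was the highest and control 1 the lowest array, and without overlap the change was 1.28 (SE 0.31, limma adjusted p = 0.0360), or 2.43-fold. The second DHCR7 probe set rose by 1.55 (limma adjusted p = 0.0252 over all probe sets) with the same high and low arrays. MSMO1, an oxygen-using demethylase of lanosterol derivatives, read 12.46, 12.51 and 12.66 in bevacizumab tumours, against 11.46, 11.81 and 12.09 in control tumours. Its bevacizumab arrays lay close together and its controls were spread, and the change was 0.76 (SE 0.17, limma adjusted p = 0.0306). LSS, which folds oxidised squalene into lanosterol, read 8.82, 9.16 and 8.90 in bevacizumab tumours, against 8.39, 8.38 and 8.36 in control tumours. Its control arrays lay very close together (SD 0.016), and the change was 0.58 (SE 0.11, limma adjusted p = 0.0190).

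SC5D, an oxygen-using desaturase of the sterol ring just before the step of DHCR7, went the other way. It read 7.63, 7.44 and 7.53 in bevacizumab tumours, against 7.87, 8.19 and 8.24 in control tumours (change -0.56, SE 0.13, limma adjusted p = 0.0312). SC5D was 1.48-fold lower while its route neighbour DHCR7 was 2.43-fold higher. Of the other tested genes of these steps, the demethylation enzymes NSDHL and HSD17B7 changed by -0.20 and 0.02, and the isomerase EBP by -0.07. None of the 3 was called. The dimmer NSDHL probe set changed by -0.38, and the other tested EBP probe sets changed by -0.32 and -0.07. At -0.38 and -0.32 all bevacizumab arrays lay below all control arrays, without a call, and at -0.07 the groups overlapped. TM7SF2, a sterol reductase, read at most 2.98 on every array.

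SQLE, the oxygen-using squalene epoxidase and a control point of the route, depended on the probe set. Its brightest probe set read 10.56, 10.91 and 10.88 in bevacizumab tumours, against 10.47, 10.63 and 10.52 in control tumours, and was not called (change 0.24, SE 0.12, limma adjusted p = 0.208). The next probe set read 8.59, 8.77 and 8.77 in bevacizumab tumours, against 7.89, 7.81 and 8.01 in control tumours, and was called (change 0.80, SE 0.10, limma adjusted p = 0.00902 over all probe sets). The third changed by -0.13 and the fourth by 0.92, neither with a call. STARD4, which carries sterols between membranes, read 10.38, 10.20 and 10.32 in bevacizumab tumours, against 9.27, 9.66 and 9.91 in control tumours. Here too the bevacizumab arrays lay close together above spread controls (change 0.69, SE 0.17, limma adjusted p = 0.0410). In the fit over all probe sets STARD4 was not called (limma adjusted p = 0.0504).

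In the fatty acid arm 1 of 9 tested genes was called higher, a share near the 9.09% of all tested genes, and none lower by limma. The median change was 0.01, and it was -0.04 after quantile normalization and -0.05 with arrays centred on their medians. Over all tested genes the median was -0.01, and it was -0.05 and -0.07 in those fits. ACACA, the carboxylase that makes malonyl-CoA, read 8.83, 9.06 and 8.77 in bevacizumab tumours, against 8.34, 8.44 and 8.51 in control tumours (change 0.46, SE 0.11, limma adjusted p = 0.0371). A dim second ACACA probe set changed by -0.09. With the probe sets averaged, ACACA changed by 0.18 and was not called (limma adjusted p = 0.197). FASN, the fatty acid synthase, read 6.43, 7.25 and 7.31 in bevacizumab tumours, against 6.09, 6.52 and 6.33 in control tumours. Its lowest bevacizumab array fell below the highest control array, so the groups overlapped, and the change of 0.69 (SE 0.26) had a limma adjusted p of 0.117. Bevacizumab 1 was the low array for FASN, as it was for SREBF1 and SREBF2, and without it both FASN and SREBF2 were called.

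ACLY and ACSS2, which supply acetyl-CoA from citrate and from acetate, changed by -0.03 (SE 0.08) and 0.01 (SE 0.07). ACSS2 carried the same deposited value, 7.75, on all 3 control arrays and bevacizumab 3, so these arrays show no spread for it. ME1, the malic enzyme that supplies NADPH, ran from 3.57 to 4.44 in bevacizumab tumours and from 3.58 to 5.67 in control tumours, near the filter, with its other 2 probe sets at the lowest value of the table on every array. The elongase ELOVL5 read 12.81, 12.70 and 12.54 in bevacizumab tumours, against 12.62, 12.86 and 12.86 in control tumours (change -0.09, SE 0.12). Of the acyl-CoA synthetases, which activate fatty acids, ACSL1 changed by 0.01 (SE 0.10). ACSL4 read 9.99, 9.44 and 10.11 in bevacizumab tumours, against 9.41, 9.37 and 9.68 in control tumours (change 0.36, SE 0.20). None of these 6 was called, and their groups overlapped.

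ELOVL6, the elongase that lengthens palmitate, depended on the probe set as SQLE did. Its brightest probe set read 8.92, 8.73 and 8.67 in bevacizumab tumours, against 8.73, 8.76 and 8.89 in control tumours, with full overlap and a change of -0.02. Its dimmest read 7.19, 7.82 and 7.16 in bevacizumab tumours, against 6.55, 6.51 and 6.54 in control tumours, and was called (change 0.86, SE 0.19, limma adjusted p = 0.0358 over all probe sets). The third changed by -0.25. Which ELOVL6 transcripts the probe sets match was not analysed here.

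Of the 4 tested desaturases only SCD was called, and it was higher, against 9.09% of all tested genes called higher. The median change of the 4 was 0.25. SCD, which makes oleate and palmitoleate and is a target of SREBP-1 and of LXR receptors, read 13.29, 13.76 and 13.37 in bevacizumab tumours, against 10.80, 11.11 and 11.27 in control tumours. The gap between the groups was wider than the spread within either. The change was 2.41 (SE 0.18, limma adjusted p = 0.00206), or 5.32-fold. It ranked 77 among the 10233 tested genes ordered from the largest rise to the largest fall. All 4 SCD probe sets were called, by 2.41, 2.48, 1.70 and 1.99. The SCD probe set with the change of 1.70 is of the design class that may also bind related transcripts. So are the only HSD17B7 probe set and the brightest IDI1 probe set. For the brightest SCD probe set the change was 2.12 in the fit with the ACTB covariate (limma adjusted p = 0.0580).

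SCD5, the second human stearoyl-CoA desaturase, read 9.09, 9.18 and 8.90 in bevacizumab tumours, against 9.13, 8.98 and 9.08 in control tumours. Its groups overlapped fully, with a change of -0.01 (SE 0.11); whether it differed from the change of SCD was not tested. FADS2, which starts the desaturation of polyunsaturated fatty acids, read 5.42, 5.52 and 5.73 in bevacizumab tumours, against 5.15, 5.42 and 5.33 in control tumours (change 0.26, SE 0.12, limma adjusted p = 0.186). FADS3, which acts on sphingoid bases, read 8.10, 8.32 and 8.25 in bevacizumab tumours, against 8.17, 8.18 and 7.56 in control tumours (change 0.25, SE 0.19, limma adjusted p = 0.381). For FADS3 it was control 3 that lay apart from the other arrays.

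Enzymes that use molecular oxygen are found in both arms. Of 8 listed, 6 were tested: MSMO1 and SCD were called higher, SC5D was called lower, and SQLE, SCD5 and FADS2 were not called. Over all tested genes 9.09% were called higher and 9.97% lower. The median change of the 6 tested enzymes was 0.25. FADS3 was not on this list.

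The groups of genes also differed in how they varied between arrays. The mean deviation of the 5 regulators from their gene means was 0.25, 0.54 and 0.64 on bevacizumab arrays, against -0.57, -0.46 and -0.39 on control arrays. For the 4 desaturases, where SCD supplies most of the difference, it was 0.26, 0.48 and 0.35, against -0.40, -0.29 and -0.40. For the 15 sterol genes it was 0.04, 0.07 and 0.17, against -0.26, -0.06 and 0.05, so bevacizumab 1 lay below control 3. For the 9 fatty acid genes it was -0.02, 0.08 and 0.10, against -0.12, 0.07 and -0.11, with clear overlap. Within the bevacizumab group array 1 was the lowest in all 4 groups of genes. These means describe the arrays and carry no test.

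**Figure D3:**
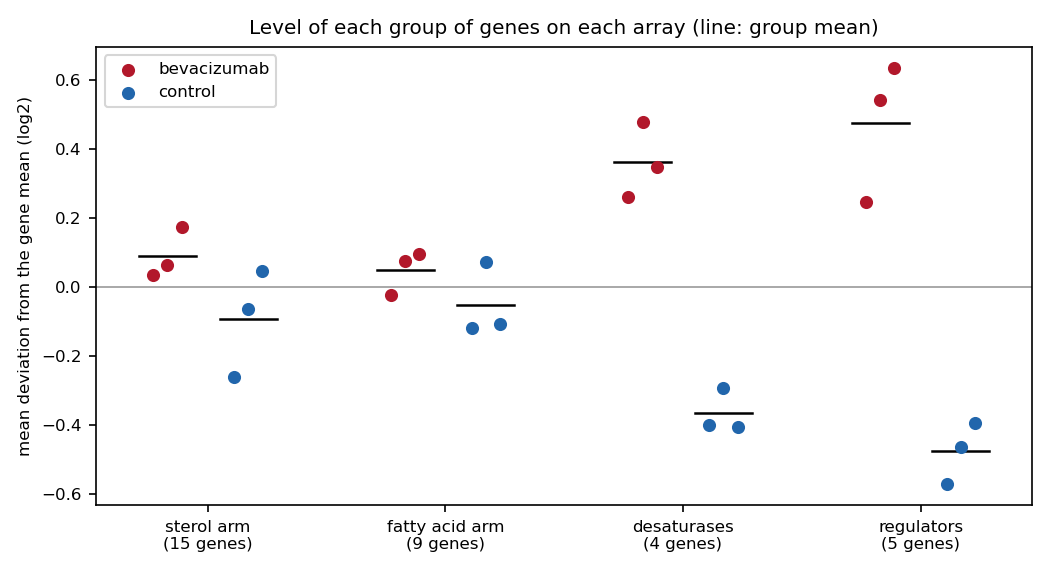
Mean deviation from each gene's mean over the 6 arrays (log2), for each array and group of genes, with bevacizumab left of control and a line at the group mean. Regulators and desaturases are apart between the groups, while the sterol and fatty acid arms overlap.

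Probe sets of 1 gene were compared in a fit over all 18469 probe sets with a mean of at least 4. Of 66 member probe sets tested, 17 were called higher, against 7.46% of all probe sets, and 1 lower, against 7.98% of all probe sets. Of the 19 members with more than 1 tested probe set, 14 had them all in 1 direction. The other 5 were ACACA, ELOVL6, MVK, SCD5 and SQLE, and in SCD5 both changes were within 0.01 of zero. Probe sets of a gene share arrays and partly share transcripts, so they are not replicates.

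**Figure D4:**
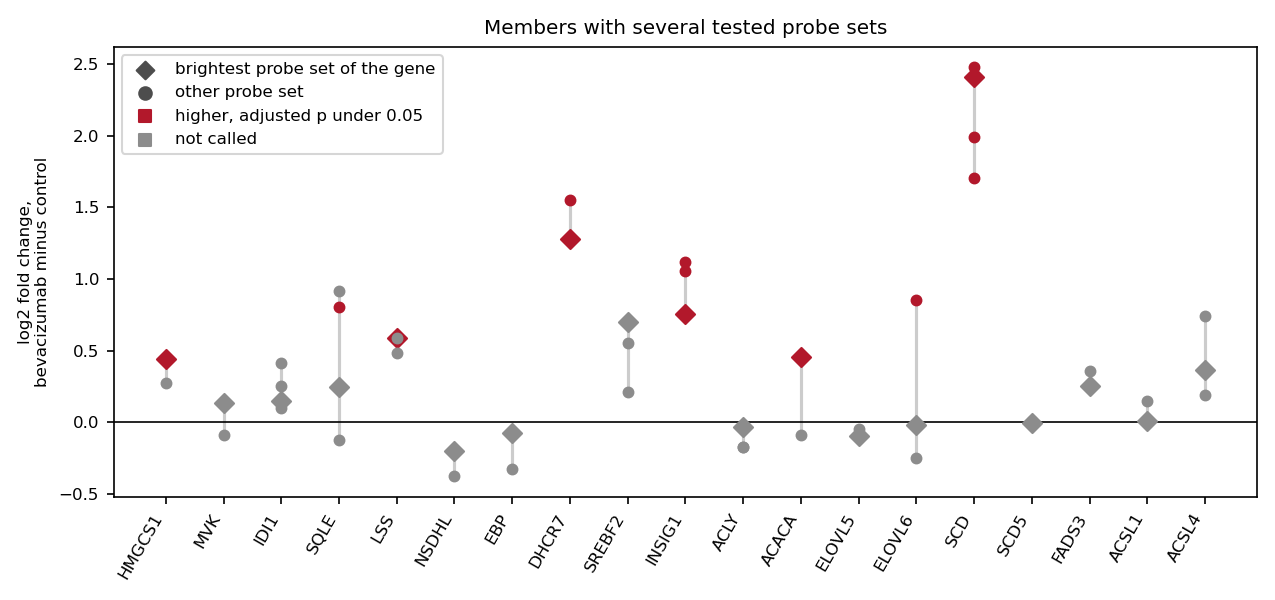
Log2 fold change (bevacizumab minus control) of every tested probe set of the 19 members that have more than 1; diamonds are the brightest probe set, circles the others, and red marks a call. The 4 SCD, 3 INSIG1 and 2 DHCR7 probe sets are all red, while SQLE and ELOVL6 have 1 red point among several.

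Neighbours of the route were taken from lists of related genes, and each count stands against 9.09% higher and 9.97% lower over all tested genes, so that 1 call among 6 to 10 genes is near the background. Among genes that process SREBP or degrade the INSIG system, 1 of 8 tested was called: RNF145, a ubiquitin ligase described in mouse liver to act on SCAP, rose by 0.40 (SE 0.09, limma adjusted p = 0.0307). The proteases that cut SREBP were not called, MBTPS1 with a change of 0.42 (limma adjusted p = 0.0804) and MBTPS2 with 0.14. In the isoprenoid branch, which leaves the sterol route after mevalonate, 2 of 10 were called and both fell, against 9.97% of all tested genes. ICMT, which methylates prenylated proteins, fell by 0.54 (limma adjusted p = 0.0141) and PDSS1, which makes the side chain of ubiquinone, fell by 0.64 (limma adjusted p = 0.0469). Among other elongases and the elongation cycle 1 of 6 was called. This was ELOVL7, an elongase of long saturated chains, which read 6.87, 6.86 and 7.58 in bevacizumab tumours, against 4.17, 4.52 and 5.60 in control tumours (change 2.34, SE 0.40, limma adjusted p = 0.0148). None of 6 tested genes of fatty acid supply was called by limma, and their median change was 0.34.

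Genes that move and store sterols held 2 higher and 1 lower among 10 tested, against 9.09% higher and 9.97% lower of all tested genes. NPC1, which exports cholesterol from lysosomes, rose by 1.08 (SE 0.15, limma adjusted p = 0.00849), with arrays at 10.42, 10.51 and 10.68 in bevacizumab tumours, against 9.19, 9.55 and 9.64 in control tumours. CH25H, which turns cholesterol into an oxysterol that blocks SREBP release, rose by 0.79 (SE 0.10, limma adjusted p = 0.00639). TMEM97, which binds NPC1, fell by 0.40 (limma adjusted p = 0.0232).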

How the data were processed

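Gene expression was measured on 6 one-colour Affymetrix arrays. Per the submitters' processing notes, GCOS 1.1.1.052 and GCRMA (no version given) made the values; GCRMA corrects background, normalizes between arrays and summarises probe sets. The authors deposited log2 values made by GCRMA, per the submitters' processing notes; the log2 scale was inferred from the range, 2.23 to 15.99, and the values were used as they stand. Scanner files were not used here, and no array dates were given, so no batch could be tested. The number of arrays limits the precision.

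Of 54675 probe sets, 41097 have a single gene symbol in the platform annotation, 1801 have several and 11777 have none; 41043 of the single-gene sets matched the reference gene table by identifier. The probe set with the highest mean stood for each of 19775 genes, and the 10233 genes with a mean of at least 4 were tested with limma 3.58.1 in R 4.3.3 (lmFit, eBayes, no covariate, Benjamini-Hochberg over all genes tested, two-sided). An exact permutation test served for the 3' to 5' differences. The procedure was tested on simulated data. Promoter windows are from RefSeq, the first listed for each gene. Array profiles correlated at 0.992 to 0.997 within groups and 0.986 to 0.993 between groups (Pearson, across probe sets, which are not replicates).

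The members, lists and tests were chosen with earlier results of these data known, so no count over the members is independent evidence. Per-array values were given for every called member, all regulators and desaturases, and the member with the largest change of each role; members with probe sets in opposite directions were named, and up to 3 called genes of each list of neighbours. Array values of ACAT2, SQLE and ELOVL6, and MBTPS1, MBTPS2, NR1H3, LPCAT3, SMPDL3A and LPIN1, were added after their values were seen. Same-numbered arrays did not vary together (correlations of deviations -0.05, -0.01 and -0.05), so the numbers were not taken as pairs. Tried besides were other filters, another summary of probe sets, single probe sets, a floor, renormalization, centring, array weights, a trend, the ACTB covariate, a replicate block and leaving out each array.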

Additional observations from a re-analysis of the deposited data

How the results depend on the processing

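Without the filter on dim genes, with 19775 genes tested, 598 genes were called, with 2 members higher (SCD and INSIG2) and 0 lower by limma (11 and 2 at an unadjusted p under 0.05). With the ACTB 3' to 5' difference as a covariate these counts were 24, 0 and 0 (5 and 3 unadjusted), the median change was -0.012 for the sterol arm, 0.49 for desaturases and 0.30 over all members, and SCD, SREBF1 and INSIG2 had changes of 2.12, 2.02 and 1.19 with limma adjusted p of 0.0580, 0.0926 and 0.0811. With a replicate block, which the check of the numbers did not support as pairs, 904 genes were called, with 5 members higher and 0 lower (12 and 2 unadjusted). Over all genes, in either direction, 3416 of 19775 passed the unadjusted level without the filter. With the covariate 2643 of 10233 passed it, and with the block 3119 of 10233. A filter at 6 and array weights each gave 2 members lower. Averaging the probe sets of each gene gave a regulator median of 0.98. Leaving out 1 array at a time gave 558 to 2074 genes called, 3 to 8 members higher and 0 to 1 lower, and medians of 0.04 to 0.16 for the sterol arm, -0.03 to 0.03 for the fatty acid arm, 0.16 to 0.34 for desaturases, 0.66 to 0.90 for regulators and 0.13 to 0.27 over all members. The fatty acid median, 0.01, was -0.04 after quantile normalization and -0.05 with arrays centred, so it has no settled direction. The median over all tested genes moved too, from -0.01 to -0.05 and -0.07 in those fits. The causes were not tested. For single members no change was reversed with a call; of 558 member fits under other settings 484 kept the side of the threshold, 67 lost a call and 7 gained one. Probe sets under 4 are limited by signal near background.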

Other observations

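Genes that answer to the LXR sterol receptors, and genes that build glycerolipids, stand beside both routes and were not described above. Among 5 tested LXR and efflux genes 2 were called higher, against 9.09% of all tested genes, and none lower by limma. PLTP, which moves phospholipids between lipoproteins, read 12.21, 13.16 and 12.88 in bevacizumab tumours, against 10.75, 10.92 and 10.62 in control tumours (change 1.99, SE 0.25, limma adjusted p = 0.00684). ABCA1, which exports cholesterol from the cell, read 10.36, 10.11 and 10.47 in bevacizumab tumours, against 8.41, 8.14 and 8.89 in control tumours (change 1.83, SE 0.21, limma adjusted p = 0.00559). The receptor gene NR1H3 changed by 0.21 (limma adjusted p = 0.274). LPCAT3 and SMPDL3A, the other tested genes of this list, changed by 0.12 and 0.01, with overlap and no call. NR1H2, ABCG1 and MYLIP were not tested.

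Of 9 tested glycerolipid genes 1 was called, and it was lower, a share near the 9.97% of all tested genes called lower. GPAM, which adds the first acyl chain to glycerol phosphate, read 8.24, 8.24 and 7.95 in bevacizumab tumours, against 8.91, 8.97 and 9.15 in control tumours (change -0.87, SE 0.12, limma adjusted p = 0.00918). LPIN1, a phosphatidate phosphatase, read 9.53, 9.41 and 9.06 in bevacizumab tumours, against 7.71, 8.59 and 8.66 in control tumours, without overlap (change 1.01, SE 0.28, limma adjusted p = 0.0537).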
